A study of Mus musculus with 5 samples.

Results

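The Schlafen genes Slfn1, Slfn2, Slfn4 and Slfn5 were followed through the immune cells of mouse melanomas. The 4 members are those named for this account, out of 10 Schlafen symbols and 28692 genes listed in the files, and their unique molecular identifiers (UMIs, one per captured RNA molecule) were summed per immune class and library. B16-F10 is a mouse melanoma cell line, and the tumors were grown under the skin from 500000 implanted cells and resected on day 11. Live CD45-positive cells, the leukocytes, were sorted from digested tumors, about 16000 cells were loaded per library, and 5' single-cell RNA libraries were sequenced, 1 for each treatment: PBS (the vehicle), anti-PD1 (an antibody against the inhibitory receptor PD-1), an IL15 superagonist (an engineered form of the lymphocyte growth factor interleukin-15), both agents together (combination), and an anti-PD1-IL15 protein fusion (fusion). All 5 groups carry the same B16-F10 tumor, and the mouse strain is labelled only as tumor-bearing, so host genotype, age, sex, dose, schedule and the number of pooled mice were not stated in the labels. The labels also place the treatments after the resection of the tumors, which leaves the order of treatment and sampling unclear.

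Schlafen proteins share a nucleic-acid-binding core, and mouse members are grouped by length: Slfn1 and Slfn2 are short, Slfn4 is intermediate, and Slfn5, Slfn8 and Slfn9 are long and carry a helicase-like part. The family was first described in developing thymocytes, where Slfn1 restrains growth. Slfn2 is needed to keep T cells and monocytes quiescent and protects transfer RNAs from cleavage by angiogenin. Slfn4 is known from myeloid cells and macrophage activation, Slfn5 from the interferon response, and several members are induced by type I interferon through the transcription factor complex that binds the interferon-stimulated response element (ISRE).

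On GRCm38, 8 Schlafen genes lie side by side on chromosome 11 within 335.4 kb, from 82951349 to 83286726. In order they are Slfn5, Slfn9, Slfn8, Slfn2, Slfn1, Slfn4, Slfn3 and Slfn14. Slfn2 (ENSMUSG00000072620) spans 83065112 to 83070678, Slfn1 (ENSMUSG00000078763) 83116849 to 83122670, Slfn4 (ENSMUSG00000000204) 83175186 to 83190216 and Slfn5 (ENSMUSG00000054404) 82951349 to 82964840, all on the plus strand and all protein coding. Interferon targets are read beside the members below, and the part of the element in these values was not tested. Promoters are shown from RefSeq (GRCm38.p6), 250 bases before to 50 after the annotated start. They are of Slfn5, Slfn8 and Slfn4. Among the members, Slfn5 had the highest correlation with summed interferon targets over the sums per class and library (r = 0.862). Slfn8 is a long gene of the same cluster. Slfn4 was the member with the largest differences between libraries in monocytes. Capitals mark the ISRE core, GAAA, any 2 bases, GAAA, on either strand.
Slfn5, chr11:82951852-82952151, plus strand: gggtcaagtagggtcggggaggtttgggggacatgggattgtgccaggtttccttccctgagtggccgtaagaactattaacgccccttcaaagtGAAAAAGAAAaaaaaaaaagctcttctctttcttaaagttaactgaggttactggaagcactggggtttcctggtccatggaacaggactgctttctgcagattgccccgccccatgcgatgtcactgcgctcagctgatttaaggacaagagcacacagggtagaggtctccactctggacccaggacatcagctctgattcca
Slfn8, chr11:83020761-83021060, minus strand: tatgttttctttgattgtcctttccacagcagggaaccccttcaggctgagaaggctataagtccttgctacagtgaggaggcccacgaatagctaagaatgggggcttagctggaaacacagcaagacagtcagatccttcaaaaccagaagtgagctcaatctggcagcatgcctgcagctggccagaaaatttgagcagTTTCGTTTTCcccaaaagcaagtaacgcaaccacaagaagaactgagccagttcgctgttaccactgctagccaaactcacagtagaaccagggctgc
Slfn4, chr11:83174936-83175235, plus strand: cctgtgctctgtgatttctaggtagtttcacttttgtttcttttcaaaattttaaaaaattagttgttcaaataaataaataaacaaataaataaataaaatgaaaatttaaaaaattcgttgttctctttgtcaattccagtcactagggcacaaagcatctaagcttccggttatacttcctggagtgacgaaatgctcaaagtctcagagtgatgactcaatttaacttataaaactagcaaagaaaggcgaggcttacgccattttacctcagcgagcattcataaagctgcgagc
The RefSeq start of Slfn5 lies downstream of the GENCODE gene start given above. The Slfn5 match began at position -155 from the annotated start, and matches of Slfn9 at -45 and of Slfn8 at -48 were on the other strand of the gene. The windows of Slfn1, Slfn2 and Slfn4 held no match to these letters, and 3.44% of 32851 RefSeq promoter windows of this length did. The STAT-binding core TTCNNNGAA was in none of the Schlafen windows and in 8.30% of all windows.

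The libraries held 6015 to 8747 barcodes with a median of 4279 to 7851 UMIs, lowest with the IL15 superagonist and highest with the fusion, and any 2 libraries shared 61 to 104 barcode sequences. After filters, 66.3% to 86.9% of cells fell into 1 of 14 classes gated on marker UMIs that include no Schlafen gene. Check markers outside the gates separated the classes in part. The summed T-cell list was 2034 to 2390 counts per 1000000 class UMIs (CPM) in CD8 T cells against 9.74 to 21.8 in classical monocytes. The B-cell list did not set B cells (21470 to 30914 CPM) apart from cDC1 (24801 to 37691), the monocyte list was higher in nonclassical (5094 to 7503) than in classical monocytes (3113 to 5150), and the dendritic-cell list overlapped between B cells (95 to 192) and cDC2 (64.7 to 215). In the classical monocyte gate the macrophage list (Apoe, Ms4a7, Cd63, 3 of 3 detected) summed to 765 to 2448 CPM there and to 2297 to 7113 in macrophages. Neutrophils were few, with 25, 65, 33 and 34 cells in the first 4 libraries and 2 in the fusion library, which is left out for that class. In these libraries a class can hold less of a gene's RNA per cell or more RNA of other genes, and CPM does not tell these apart.

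Slfn2 was detected in all classes and was most abundant in monocytes, neutrophils and macrophages. Over the libraries with at least 20 cells, its median was 881 CPM in neutrophils (817 to 1219), 839 in classical monocytes (714 to 1006), 782 in nonclassical monocytes (710 to 1003) and 512 in macrophages (449 to 593). The first 3 ranges overlapped, and the macrophage range lay below them and above that of every lymphoid class. The lymphoid medians ran from 286 in gamma-delta T cells and 270 in CD4 T cells (210 to 412) through 194 in NK cells (136 to 309) to 141 in CD8 T cells (57.6 to 253), and plasmacytoid dendritic cells were lowest at 45.6 (27.0 to 85.1).

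Slfn1 was shared by myeloid cells and T cells but was close to absent from NK cells. Its median was 305 CPM in neutrophils (209 to 347), 113 in classical monocytes (90.5 to 165), 81.9 in nonclassical monocytes (60.4 to 113), 81.5 in CD4 T cells (50.5 to 96.9), 60.5 in macrophages (41.3 to 82.7) and 38 in CD8 T cells (16.6 to 65.3). Neutrophils stood above every other class in the 4 libraries where they were measured, and the classes that follow overlapped with their neighbours. NK cells held 1.81 CPM in PBS, 1.67 in anti-PD1, 1.57 with IL15 superagonist, 2.33 in combination and 0.834 in fusion, which is 19 UMIs over 2591 cells, and plasmacytoid dendritic cells held 1 UMI over 135 cells. With every cell thinned to 2000 UMIs, a Slfn1 UMI was found in 0.662% or less of NK cells in each library and in 3.55% to 15.1% of CD8 T cells.

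Slfn4 was a myeloid transcript. Neutrophils held 1365 CPM in PBS, 517 in anti-PD1, 462 with IL15 superagonist and 332 in combination, all above the highest classical monocyte value of 133. Macrophages ranged from 11.6 to 70.9, nonclassical monocytes from 6.94 to 38.2 and cDC2 dendritic cells from 6.33 to 10.8. Among lymphocytes, 32 UMIs were found over 13203 CD8 T cells (0.0966 to 1.03 CPM) and 5 over 2591 NK cells, and the 9 UMIs of CD4 T cells came from 3 of 108 cells of the anti-PD1 library. Stem-like CD8 T cells held 0 Slfn4 UMIs, which allows up to 2.52 CPM in the IL15 superagonist library, their largest sample.

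Slfn5 was a myeloid and dendritic-cell transcript. Its median was 100.4 CPM in classical monocytes (85.5 to 141), 81.2 in neutrophils (36.9 to 123), 75.5 in cDC2 (60.2 to 116), 55.5 in nonclassical monocytes (46.8 to 126), 51.9 in macrophages (43.0 to 69.8), 42.5 in mature dendritic cells (35.6 to 56.0) and 37.4 in cDC1 (18.2 to 96.4). Neighbours in this order overlapped, and macrophages and mature dendritic cells stayed below classical monocytes. CD4 T cells had 14.8 to 46.1 CPM and CD8 T cells 1.56 to 6.23. NK cells reached 7.78 CPM in anti-PD1 and held 0 UMIs in PBS, where the limit allowed by a count of 0 is 5.43 CPM.

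**Figure D1:**
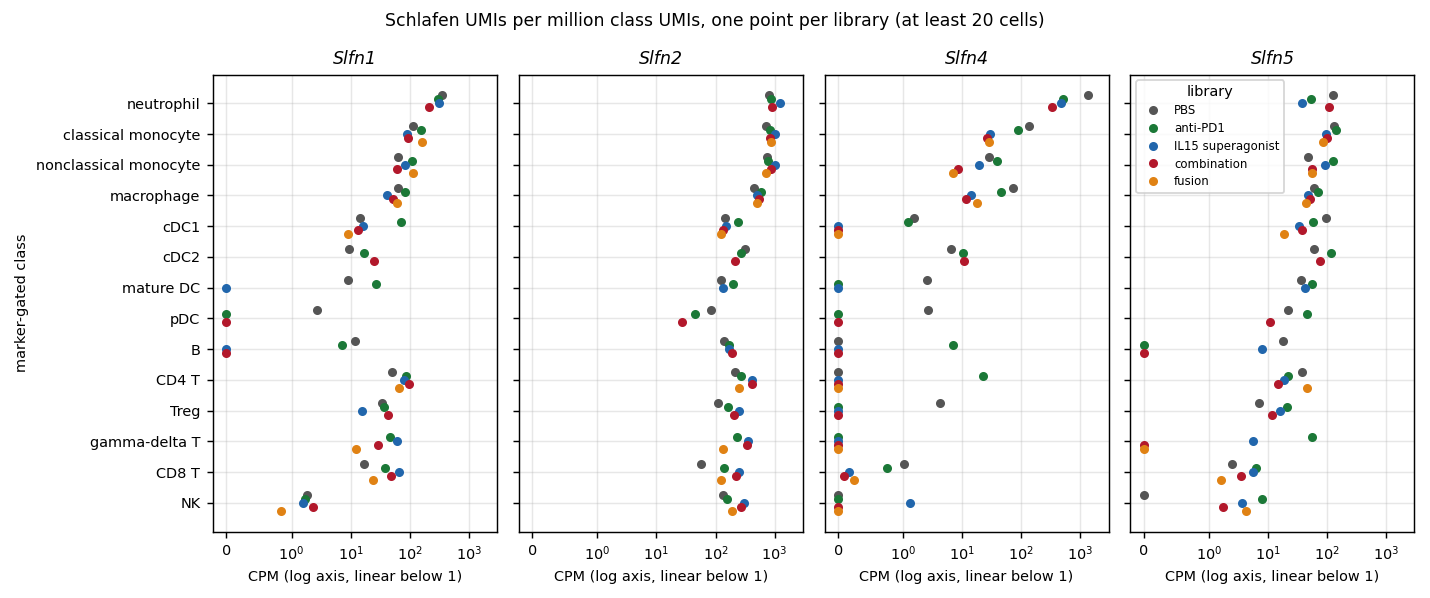
Each point is the CPM of 1 Schlafen gene in 1 class and library (log axis, linear below 1), colored by library, for classes with at least 20 cells. Slfn1 in NK cells lies at 2.33 CPM or lower in all 5 libraries, and Slfn4 is highest in the 4 neutrophil samples, at 332 to 1365 CPM.

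Differences between classes were tested over libraries, each library giving both classes, with edgeR's quasi-likelihood test and Benjamini-Hochberg adjustment over all genes tested. The libraries differ in treatment, so these p-values measure how even a class difference was over 5 treatments (or fewer where a class was small). The pairing of classes within a library matters for the calls: without it, as the closing part gives, fewer members passed in 4 of the 10 comparisons. Log2 fold changes below are of the first class over the second.

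All 4 members were lower in macrophages than in classical monocytes, the cells that give rise to many tumor macrophages. In that comparison 47.8% of 9918 genes tested were called at an adjusted p under 0.05, so a call by itself says little about the members. The differences were of like size, at -1.12 ± 0.07 (SE, 5 libraries) for Slfn5, -1.11 ± 0.08 for Slfn1, -1.08 ± 0.08 for Slfn4 and -0.80 ± 0.07 for Slfn2, with the largest edgeR adjusted p at 7.65e-08. Each was lower in macrophages in 5 of 5 libraries. Of the interferon list of 30 measured type I targets, 25 fell and 1 rose with a median of -0.67 against 0.01 over all genes, and among them the exonuclease Isg20 fell by 1.40, Ifi205 by 1.32 and the membrane antiviral gene Ifitm3 by 1.24. All 13 measured genes of interferon signalling fell, led by the receptor chain Ifngr1 (-0.90) and the transcription factors Irf1 (-0.80) and Irf7 (-0.79).

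Neutrophils differed from classical monocytes in 2 of the 4 members, with 26.7% of genes called. Slfn4 rose by 3.52 ± 0.21 (edgeR adjusted p = 2.44e-58, 4 libraries) and Slfn1 by 1.53 ± 0.22 (edgeR adjusted p = 4.38e-11), while the median gene stood at -0.35. Slfn2 at 0.34 ± 0.19 and Slfn5 at -0.45 ± 0.28 did not pass, although DESeq2 called Slfn2 at 0.46 (adjusted p = 0.0369). Nonclassical monocytes, the patrolling subset, were lower than classical monocytes in 3 of the 4 members, with 35.1% of genes called. Slfn4 fell by 1.43 (SE 0.16), Slfn1 by 0.53 (SE 0.09) and Slfn5 by 0.51 (SE 0.14), and Slfn2 was at -0.06 ± 0.06, with an edgeR adjusted p = 0.499. Without the combination library Slfn5 no longer passed (edgeR adjusted p = 0.0514). Type I interferon targets fell in the same comparison for 19 of 28 measured genes.

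In lymphocytes, Slfn1 separated CD8 T cells from NK cells more than any other member. It was higher by 4.71 ± 0.20 on the log2 scale (edgeR adjusted p = 7.58e-08, 5 libraries), whereas Slfn2 was lower by 0.52 (SE 0.14, edgeR adjusted p = 0.0106) and Slfn5 was at 0.15 ± 0.37. Slfn4 did not pass the filter on low counts, and 44% of genes were called. The Slfn1 difference held in every library: 16.6 against 1.81 CPM in PBS, 38 against 1.67 in anti-PD1, 65.3 against 1.57 with IL15 superagonist, 48.9 against 2.33 in combination and 23.5 against 0.834 in fusion. Slfn2 did not follow this pattern, since its NK values exceeded its CD8 values in all 5 libraries. The CD8 class includes cycling cells, which are compared further below. In CD8 T cells without cycling genes, Slfn2 was 89.3 to 313 CPM (median 223) against 136 to 309 (median 194) in NK cells. There it was below the NK value in PBS only, and the part of cycling cells in the Slfn2 difference was not tested.

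CD8 T cells had less of the 3 members that passed the filter than CD4 T cells, with 24.7% of genes called: Slfn5 at -2.68 ± 0.45, Slfn2 at -0.95 ± 0.14 and Slfn1 at -0.92 ± 0.18 (largest edgeR adjusted p = 0.00107). Regulatory T cells were lower than CD4 T cells in Slfn1 (-1.26 ± 0.22) and Slfn2 (-0.94 ± 0.13), the 2 members that passed the filter there, with 17.8% of genes called. Against classical monocytes, CD8 T cells were lower in all 4 members, by 7.31 for Slfn4, 5.22 for Slfn5, 2.86 for Slfn2 and 2.06 for Slfn1, in a comparison that called 74.5% of genes. Among conventional dendritic cells 2 members passed the filter in 3 libraries, with 15.5% of genes called. Slfn2 was lower in cDC1, the cross-presenting subset, than in cDC2 by 0.61 (SE 0.18, edgeR adjusted p = 0.0339), a call that DESeq2 did not make (adjusted p = 0.223), and Slfn5 was at -0.39 ± 0.30.

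**Figure D2:**
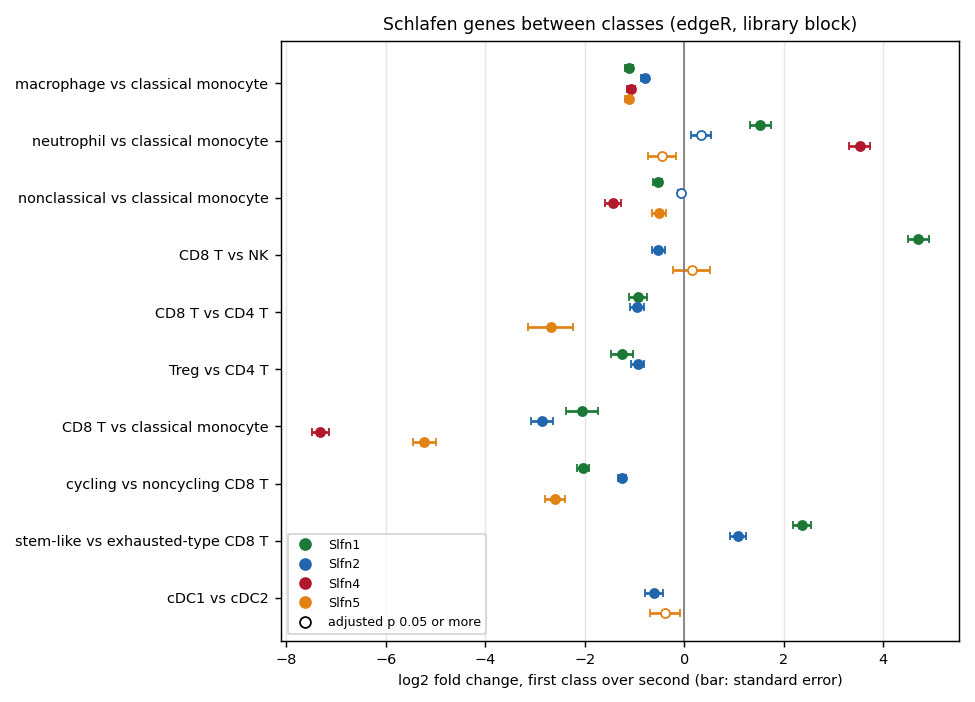
Points are edgeR log2 fold changes of each member between 2 classes with the standard error as bars, and open points did not pass an adjusted p of 0.05; members without a point did not pass the filter on low counts. The Slfn1 difference between CD8 T and NK cells (4.71) and the Slfn4 difference between neutrophils and classical monocytes (3.52) lie farthest to the right.

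Within CD8 T cells, cells with at least 2 of 8 cycling genes (such as Mki67 and Top2a) were compared with those with none. As a share of UMIs, all 3 members that passed the filter were lower in cycling cells, with 53.9% of genes called: Slfn5 at -2.60 ± 0.21, Slfn1 at -2.03 ± 0.12 and Slfn2 at -1.25 ± 0.08 (largest edgeR adjusted p = 1.91e-06). The quiescence list, of genes such as Klf2, Btg1 and Foxp1 that are known from resting lymphocytes, fell in 17 of 17 genes with a median of -1.17, led by Klf3 (-3.36), Tcf7 (-2.89) and S1pr1 (-2.68). Type I interferon targets fell in 24 of 25.

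Cycling cells also held more UMIs, with a mean of 10268 per cell against 4654 in PBS and 12211 against 6274 in fusion. The gates rest on detected and undetected genes, which depend on a cell's UMI total, and their part in this gap was not tested. The same cells were therefore also counted per cell. Slfn2 then came to 0.401 UMIs per cycling cell and 0.415 per noncycling cell in PBS, 0.991 and 1.15 in anti-PD1, 1.76 and 1.49 with IL15 superagonist, 1.63 and 1.44 in combination, and 1.29 and 1.27 in fusion. Per cell the 2 states thus lay within 0.862 to 1.18 times of each other, and the lower share of Slfn2 in cycling cells went with their larger UMI total. Slfn1 stayed lower per cycling cell, at 0.0830 against 0.143 in PBS, 0.203 against 0.356 in anti-PD1, 0.214 against 0.434 with IL15 superagonist, 0.216 against 0.335 in combination and 0.201 against 0.320 in fusion. The per-cell ratio of Slfn1 ran from 0.493 to 0.646, and its 95% counting interval lay below 1 in each library.

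Stem-like CD8 T cells (at least 2 of a list of memory-type genes such as Tcf7, Lef1, Ccr7, S1pr1 and Il7r and none of the other list) had more of both members that passed the filter than exhausted-type cells (at least 2 of Pdcd1, Havcr2, Lag3, Tigit, Entpd1 and Tnfrsf9 and none of the first list), with 41.4% of genes called. Slfn1 was 103 CPM in stem-like and 12.2 in exhausted-type cells of PBS, 187 and 24.7 in anti-PD1, 136 and 39.9 with IL15 superagonist, 121 and 29.6 in combination and 80.2 and 22.1 in fusion. No stem-like value overlapped an exhausted-type value, and the difference was 2.36 ± 0.18 (edgeR adjusted p = 4.56e-13, 5 libraries); the PBS and fusion values rest on 37 and 20 stem-like cells. Stem-like cells held fewer UMIs, with a mean of 3415 per cell against 6429 in PBS and 4363 against 9369 in fusion. The part of the gates in this gap was not tested. Per cell Slfn1 was 1.96 to 4.47 times as high in 4 libraries with the interval off 1. In fusion it was 1.69 times, from 7 UMIs, with an interval of 0.677 to 3.50 that includes 1. Slfn2 was higher by 1.07 ± 0.16 as a share of UMIs, but its UMIs per cell were 0.736 to 0.907 times those of exhausted-type cells in 4 libraries and 2.58 times in PBS, so the Slfn2 difference did not hold per cell outside PBS.

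Between treatments there is 1 library each, so values are compared without a test. Ratios of CPM carry an exact 95% interval that covers counting error only, and a ratio is called here when it is at least 1.5-fold with the interval off 1. The share of all genes called in the same way, which includes any difference between libraries in animals or handling, is given beside each count.

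Slfn1 and Slfn2 were lowest in CD8 T cells of the PBS library and highest with the IL15 superagonist. Slfn2 was 57.6 CPM in PBS, 141 in anti-PD1, 253 with IL15 superagonist, 219 in combination and 124 in fusion. Slfn1 put the libraries in the same order, at 16.6, 38, 65.3, 48.9 and 23.5 CPM. Against PBS the Slfn2 ratios were 2.44 (2.16 to 2.76), 4.39 (3.92 to 4.93), 3.80 (3.4 to 4.26) and 2.16 (1.93 to 2.41), and the Slfn1 ratios were 2.28 (1.81 to 2.90), 3.92 (3.17 to 4.90), 2.94 (2.39 to 3.66) and 1.41 (1.15 to 1.75). Slfn5, at 2.40, 6.23, 5.45, 3.43 and 1.56 CPM, was 2.59 times PBS in anti-PD1 and 2.27 times with IL15 superagonist. Thus 3 of the 3 members with enough UMIs were called with anti-PD1 (14.8% of all genes) and with IL15 superagonist (30.4%), 2 of 3 with combination (26.5%), and 2 of 4 with fusion (38.6%), Slfn2 higher and Slfn4 lower, the latter at 0.243 against 1.03 CPM from 16 and 6 UMIs. These calls depend on PBS as the reference: against anti-PD1, Slfn2 in fusion was at 0.884 (0.831 to 0.942) and Slfn5 with IL15 superagonist at 0.875 (0.592 to 1.3). With mixed-lineage cells kept, the Slfn5 ratio of anti-PD1 to PBS was 1.31.

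The share of cycling cells among CD8 T cells differed between libraries, at 32.0% in PBS, 33.7% in anti-PD1, 12.5% with IL15 superagonist, 13.8% in combination and 64.0% in fusion. Within noncycling CD8 T cells, Slfn2 was 89.3, 223, 313, 277 and 202 CPM in the same order, and Slfn1 30.6, 68.9, 91.3, 64.6 and 51.0. The ratios to PBS there were 2.27 to 3.51 for Slfn2 and 1.66 to 2.98 for Slfn1, so both members were called in all 4 treated libraries. With Slfn5, that was 3 of 3 members with anti-PD1 (15.8% of genes) and 2 of 3 with IL15 superagonist (26.8%), combination (24.3%) and fusion (37.5%). Cycling CD8 T cells gave 2.15 to 3.28 for Slfn2 and 1.78 to 2.12 for Slfn1, called in all 4 treated libraries (13.9%, 24.3%, 21.9% and 33.6% of genes), while Slfn5 had enough UMIs only in fusion and was not called. With cells thinned to 2000 UMIs, a Slfn2 UMI was found in 16.4% of noncycling CD8 T cells in PBS, 34.3% in anti-PD1, 44.3% with IL15 superagonist, 42.3% in combination and 32.7% in fusion. The macrophage marker list in these cells was highest in PBS (28.0 CPM), where Slfn2 was lowest, and 8.30 to 15.1 in the other libraries.

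The fusion joins an anti-PD1 and an IL15 part that the combination gives as separate agents. In all CD8 T cells Slfn1, Slfn2 and Slfn5 were lower in fusion, at 0.481 (0.444 to 0.521), 0.567 (0.547 to 0.588) and 0.456 (0.334 to 0.626) times the combination, with 27% of genes called. Within noncycling cells they were at 0.789 (0.699 to 0.890), 0.729 (0.687 to 0.774) and 1.05 (0.697 to 1.58), 0 of 3 called against 23.3% of genes, and within cycling cells at 1.14, 0.971 and 0.861, 0 of 3 called against 13.7%. The cycling share was 64.0% in fusion and 13.8% in combination, and its part in the lower values of all CD8 T cells was not tested.

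**Figure D3:**
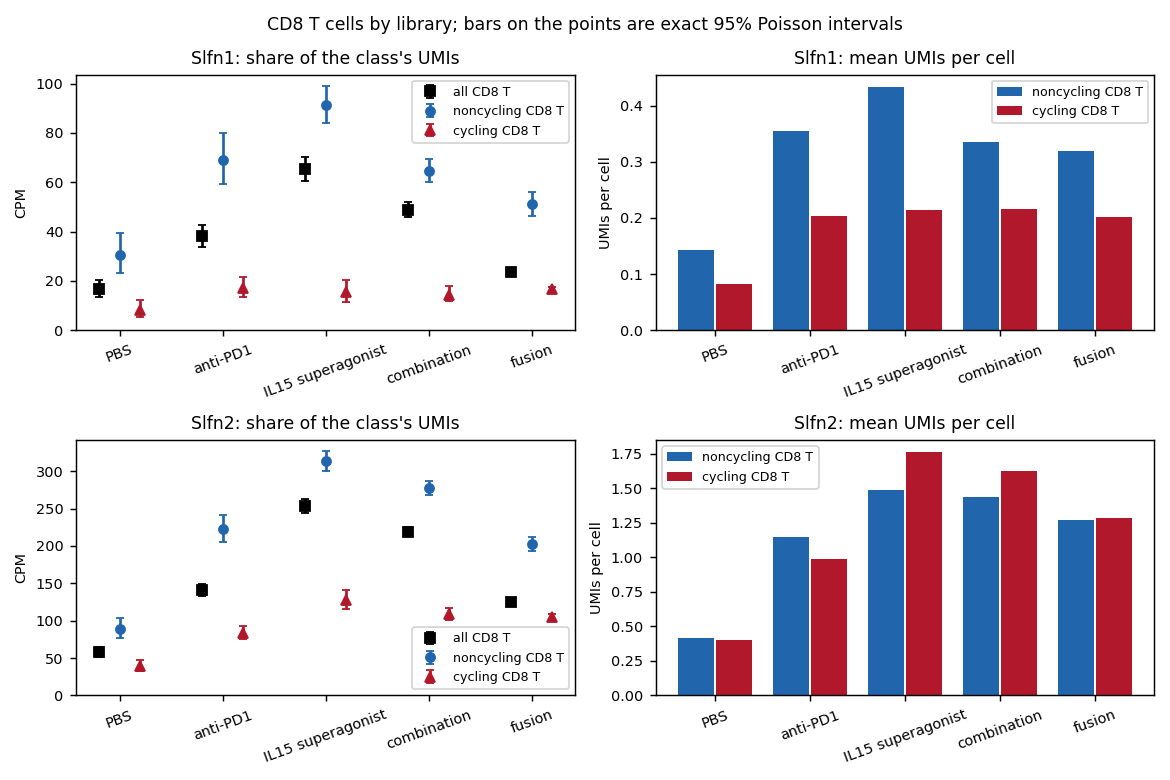
Left, CPM of Slfn1 and Slfn2 in all, noncycling and cycling CD8 T cells by library with exact 95% Poisson intervals; right, mean UMIs per cell in noncycling and cycling cells. PBS is lowest in each series, and Slfn2 per cell is close between cycling and noncycling cells (0.401 and 0.415 in PBS) where its CPM is not.

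NK cells differed in Slfn2 but kept Slfn1 near 0. Slfn2 was 136 CPM in PBS, 155 in anti-PD1, 309 with IL15 superagonist, 272 in combination and 194 in fusion. The ratios to PBS were 1.14 (0.879 to 1.49), 2.28 (1.80 to 2.92), 2 (1.58 to 2.57) and 1.43 (1.09 to 1.87), so that IL15 superagonist and combination were called. Slfn2 was the only member with enough UMIs against PBS, and called genes made up 14.6%, 22.1%, 21% and 32.7% of all in these comparisons and 17.4% in fusion against combination, where Slfn2 was at 0.712 (0.614 to 0.823) and not called. CD4 T cells gave Slfn2 values of 210, 270, 411 and 412 CPM in PBS, anti-PD1, IL15 superagonist and combination. The fusion library held 32 CD4 T cells, below the limit of 50 for treatment ratios. Slfn2 was lowest in PBS among all libraries in each of the 3 lymphoid classes. In each it was also higher with IL15 superagonist and in combination than in anti-PD1.

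Slfn4 in monocytes and macrophages was lower in the 3 libraries that received IL15 than in PBS and anti-PD1. In classical monocytes it was 133 CPM in PBS, 89.2 in anti-PD1, 29.3 with IL15 superagonist, 25.7 in combination and 28.8 in fusion, and in macrophages 70.9, 44.9, 13.9, 11.6 and 17.8. In both classes the 3 IL15-treated libraries lay together and below the other 2. The ratios to PBS in classical monocytes were 0.671 (0.596 to 0.756) for anti-PD1, 0.220 (0.176 to 0.274) for IL15 superagonist, 0.193 (0.157 to 0.236) for combination and 0.216 (0.147 to 0.308) for fusion. In macrophages they were 0.634 (0.562 to 0.714), 0.196 (0.155 to 0.244), 0.164 (0.128 to 0.207) and 0.252 (0.182 to 0.340). Against anti-PD1 the 3 IL15-treated libraries were at 0.288 to 0.328 in classical monocytes and 0.259 to 0.397 in macrophages. Nonclassical monocytes had 28.1, 38.2, 19.0, 8.41 and 6.94 CPM and neutrophils 1365, 517, 462 and 332, but these rest on 3 to 88 and 46 to 134 UMIs per library, and the 2 neutrophils of the fusion library held 8 Slfn4 UMIs.

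Fewer cells held Slfn4, and those that did held less. At 2000 UMIs per cell, a Slfn4 UMI was found in 15.2% of classical monocytes in PBS, 14.1% in anti-PD1, 5.75% with IL15 superagonist, 4.09% in combination and 3.41% in fusion, against 0.192% or less in CD8 T cells. Without thinning, a positive classical monocyte held 2.61 UMIs on average in PBS, 2.44 in anti-PD1, 2.27 with IL15 superagonist, 1.84 in combination and 1.43 in fusion. The transcript was uneven between cells: the 5% of classical monocytes with the most Slfn4 held 54.1% of its UMIs in PBS, compared with 36.2% for Slfn1 and 35.5% for Slfn5, which were of like total, and 16.6% for the more abundant Slfn2.

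Markers of other cells moved between these libraries as well. Neutrophil markers outside the gate (Hdc, G0s2, Il1r2, Cxcr1) summed to 93.5 CPM in classical monocytes of PBS, the lowest of the 5 libraries, and to 191 in anti-PD1, the highest. The sum was mainly Il1r2 (52.5 to 135 CPM), which cDC2 held at 579 to 978. Hdc was 22.7 to 34.0 CPM in classical monocytes, G0s2 8.72 to 26.1 and Cxcr1 0. The part of these markers in the Slfn4 difference was not tested. The macrophage list summed to 2448, 1260, 1148, 1253 and 765 CPM in classical monocytes and 7113, 2840, 4463, 3214 and 2297 in macrophages, highest in PBS in both, and its part in the Slfn4 difference was not tested. Classes were also taken from Leiden clusters in place of gates. The cluster named classical monocyte held 935 cells. A cluster of 2634 cells, with classical monocytes at 46.8% of its gated cells, was left without a class. The Slfn4 ratios to PBS in classical monocytes were then 0.159 for IL15 superagonist, 0.306 for combination and 0.437 for fusion. Slfn1 was 1.65 times PBS in anti-PD1 and 2.53 times in fusion.

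The other members differed less in these cells. In classical monocytes Slfn2 was 714, 834, 1006, 839 and 882 CPM, and Slfn5 was 132, 141, 95.5, 100.4 and 85.5. Slfn5 was called lower only in fusion (0.647, 0.515 to 0.805), and Slfn1, at 113, 158, 90.5, 93.7 and 165, was called in no comparison with PBS. Of the 4 members, 0 were called with anti-PD1 (16.5% of genes), 1 with IL15 superagonist (19.4%), 1 with combination (18.5%) and 2 with fusion (25.1%). In macrophages Slfn4 was called in each comparison with PBS and Slfn1 with IL15 superagonist (0.653, 0.561 to 0.758), which makes 1 of 4 with anti-PD1 (14.2%), 2 of 4 with IL15 superagonist (12%), 1 of 4 with combination (14.3%) and 1 of 4 with fusion (20.2%). Between fusion and combination, Slfn1 was 1.76 times as high in classical monocytes (1.48 to 2.09, 1 of 4 called, 8.32% of genes; 1.39 with cells thinned to 2000 UMIs) and Slfn4 1.54 times in macrophages (1.05 to 2.23, 1 of 4 called, 6.87%).

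Nonclassical monocytes showed their highest Slfn5 in anti-PD1. The values were 46.8 CPM in PBS, 126 in anti-PD1, 92.1 with IL15 superagonist, 55.1 in combination and 55.5 in fusion, or 2.70 times PBS in anti-PD1 (1.79 to 4.24) and 1.97 with IL15 superagonist (1.22 to 3.27). Slfn1 was 1.73 times PBS in anti-PD1 and 1.78 in fusion. Called members were 2 of 4 with anti-PD1 (12.2% of genes), 1 of 4 with IL15 superagonist (15%), 1 of 4 with combination (15.1%, Slfn4 at 0.300) and 1 of the 3 with enough UMIs with fusion (23.2%), and 1 of 3 in fusion against combination (7.84%, Slfn1 at 1.88).

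**Figure D4:**
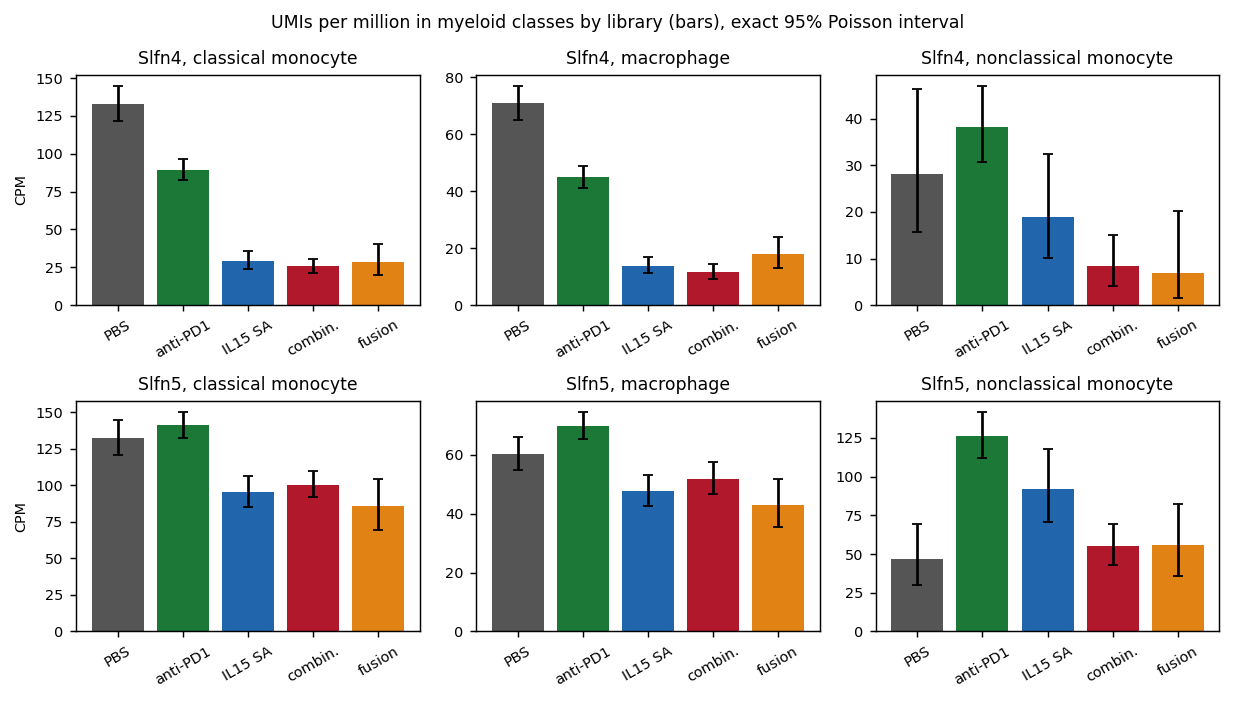
Bars are CPM of Slfn4 (top) and Slfn5 (bottom) in 3 myeloid classes by library (IL15 SA, IL15 superagonist; combin., combination) with exact 95% Poisson intervals. Slfn4 in classical monocytes drops from 133 CPM in PBS to 25.7 to 29.3 in the 3 IL15-treated libraries, while Slfn5 ranges from 85.5 to 141.

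In cDC1, Slfn1 and Slfn2 were high in the anti-PD1 library and Slfn5 in the PBS library. Slfn1 was 14.2 CPM in PBS, 70.1 in anti-PD1, 16.4 with IL15 superagonist and 13.3 in combination, or 4.93 times PBS in anti-PD1 (3.02 to 8.49). Slfn2 was 145, 244, 150 and 136 CPM in the same order. Slfn5 was 96.4, 57.5, 33.8 and 37.4 CPM, below PBS at 0.596, 0.350 and 0.388. Of the 3 members with enough UMIs, 3 were called with anti-PD1 (14.5% of genes), 1 with IL15 superagonist (19.4%) and 1 with combination (14.9%). These libraries held 129, 141, 72 and 59 cDC1, and the neutrophil list summed to 406 CPM in anti-PD1 against 119 to 254 in the other 3. That sum was mainly Il1r2, at 75.8 to 388 CPM in cDC1 over all libraries, and cDC2 held 579 to 978 CPM of it. In cDC1, G0s2 reached 1.33 CPM, Hdc 17.4 and Cxcr1 0. The macrophage list in cDC1 summed to 46.3, 28.2, 20.3 and 12.0 CPM and the monocyte list to 1259, 1602, 468 and 717. The part of these markers in the Slfn1 and Slfn5 values was not tested.

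Several members are known interferon targets, so the pathway was read beside them. The list held 15 signalling genes and 33 type I targets, of which 30 targets were in the files. In classical monocytes the targets summed to 13363 CPM in PBS, 13708 in anti-PD1, 8195 with IL15 superagonist, 8971 in combination and 11074 in fusion. Measured targets called lower than PBS were 23 of 30 with IL15 superagonist (median log2 ratio -0.76 against -0.07 over all genes), 22 of 30 with combination (-0.92 against -0.08) and 7 of 29 with fusion (-0.33 against -0.08), and with anti-PD1 3 were higher and 1 lower. Of all genes, 12.2%, 12.5% and 16.3% were called lower in classical monocytes with IL15 superagonist, combination and fusion. Slfn4 in this class was low in all IL15-treated libraries, while fewer targets were called lower in fusion. The fusion library held the fewest classical monocytes, at 176. The part of interferon in the Slfn4 values was not tested. In macrophages 16, 12 and 13 of 30 targets were called lower with IL15 superagonist, combination and fusion. The shares of all genes called lower there were 6.47%, 10.7% and 15.4%. In CD8 T cells 14 of 27 targets were called higher and 0 lower in anti-PD1 (14.8% of all genes called) and 12 of 27 and 0 with IL15 superagonist (30.4%). In combination 7 of 28 targets were called higher and 1 lower, and in fusion 8 and 3. In either direction these were near the shares over all genes (26.5% and 38.6%), but 10% and 13.6% of all genes were called higher. The median log2 ratio of the targets was 0.37 against -0.08 over all genes in combination and 0.31 against -0.13 in fusion. The summed targets in these libraries (1173 and 1258 CPM) were still below PBS (1366).

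Cells with a Slfn4 UMI held more interferon-target UMIs than cells of the same class without one. At 2000 UMIs per cell, classical monocytes with Slfn4 held 46.0 target UMIs per cell against 24.3 in PBS, 45.4 against 26.3 in anti-PD1, 36.7 against 15.8 with IL15 superagonist and 39.5 against 17.8 in combination. The ratio was 1.72 to 2.32 there and 1.66 to 2.94 in macrophages of all 5 libraries. For Slfn5 it was 1.44 to 1.97 in classical monocytes and 1.54 to 2.29 in macrophages, and for Slfn1 1.12 to 1.66 and 1.72 to 1.99. Cells without Slfn4 also held fewer target UMIs in the IL15 superagonist (15.8) and combination (17.8) libraries than in PBS (24.3). These are means over cells of 1 library and carry no test.

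**Figure D5:**
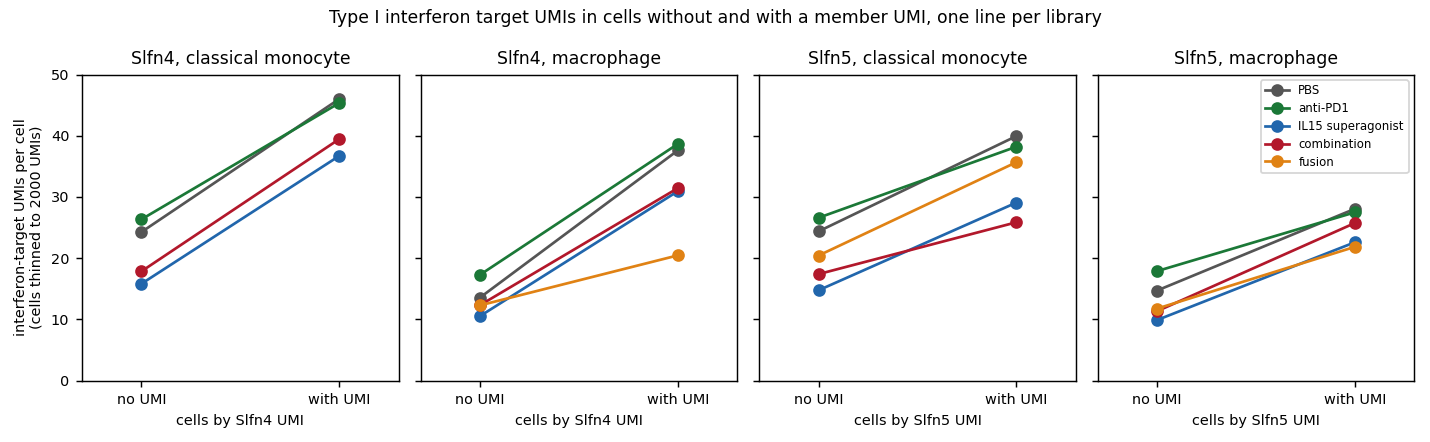
Mean type I interferon target UMIs per cell, after thinning to 2000 UMIs, in cells without and with a Slfn4 or Slfn5 UMI; each line is 1 library with at least 10 positive cells. Every line rises from left to right, for Slfn4 in classical monocytes of PBS from 24.3 to 46.0.

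Slfn4 was found more often in cells that held Slfn5. In classical monocytes of PBS, 35.9% of cells with Slfn4 had a Slfn5 UMI against 17.8% of those without, and 33.3% against 15.7% had Slfn1. The Slfn4 and Slfn5 pair showed the same direction in all 9 class-by-library samples with at least 10 Slfn4-positive cells. The Slfn4 and Slfn1 pair did so in 7 of 9; in macrophages of IL15 superagonist and fusion, with 18 and 11 Slfn4-positive cells, it went the other way. For Slfn2 in classical monocytes the direction differed by member and library. A Slfn2 UMI was in 81.2% of cells with Slfn4 and 68.4% of those without in PBS. The values were 83.1% and 71.6% in anti-PD1, 85.7% and 74.1% in combination, and 71.4% and 76.3% with IL15 superagonist. Slfn2 was found in 72.9% of anti-PD1 cells with Slfn1 and 73.4% of those without. With IL15 superagonist Slfn4 was in 5.41% of cells with Slfn2 and 6.84% without, and Slfn5 in 15.4% and 17.1%.

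Across 60 class-by-library sums, which share libraries and classes, log2(CPM + 1) of the members correlated at r = 0.495 (Slfn2 and Slfn5) to r = 0.744 (Slfn1 and Slfn2), as a description with no test. The correlation with the summed type I interferon targets was 0.862 for Slfn5, 0.686 for Slfn4, 0.545 for Slfn1 and 0.485 for Slfn2. Of 5416 genes with a mean of at least 20 CPM, those most like Slfn5 were Gda (0.820), the ceramidase Asah1 (0.810) and Ifitm3 (0.808). Slfn4 was most like the myeloid lectin receptor Clec4d (0.915), Sgms2 (0.893) and the phosphatase Ptp4a1 (0.887). Slfn2 was most like the inhibitory receptor gene Lilrb4a (0.879), Wsb1 (0.860) and Lilr4b (0.859). Slfn1 was most like the interferon target Rtp4 (0.837), Ms4a6b (0.767) and the kinase Plk3 (0.763).

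The remaining Schlafen genes set the members in context. Slfn8 was 104 CPM in classical monocytes of PBS, 71.1 in anti-PD1, 48.9 with IL15 superagonist, 53.6 in combination and 45.3 in fusion. In macrophages it was 57.7, 45.9, 28.9, 28.8 and 27.9, so this long gene of the cluster shared the direction of Slfn4 with a smaller span. Like the members it was lower in cycling than in noncycling CD8 T cells as a share of UMIs (-1.25 ± 0.13, edgeR adjusted p = 1.51e-05). Slfn9 was at 7.63 CPM or lower in cycling and noncycling CD8 T cells and went the opposite way, higher in cycling cells by 1.09 ± 0.21 (edgeR adjusted p = 0.00104). Slfn3 stayed at 2.38 CPM or lower in CD8 T, NK, classical monocyte and macrophage samples. Slfn3 is also the closest relative of Slfn4: 6.28% of the 50-base words of Slfn4 transcripts occur in Slfn3, and 4.31% of those in the first 500 bases occur in another Schlafen gene. For Slfn2 the shared part was 4.27%, for Slfn1 0.606% and for Slfn5 0, with 0 in the first 500 bases of each. How reads shared between such genes were counted was not stated in the labels, so Slfn4 counts are uncertain to that extent.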

How the data were processed

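Single-cell RNA libraries of sorted CD45-positive tumor cells, 1 per treatment, were deposited by the authors as raw UMI counts per gene and cell; Cell Ranger 2.1.1 and mm10 are named in the submitters' processing notes, and how reads shared between genes were handled was not stated in the labels. Cells with over 10% mitochondrial UMIs, fewer than 200 genes or markers of 2 lineages were removed (mixed-lineage removal stands in for a doublet caller), and the rest were gated on marker UMIs into 14 classes. UMIs were summed per class and library. Classes were compared with edgeR 4.0.16 (quasi-likelihood, TMM, filterByExpr, library as block) and Benjamini-Hochberg adjustment over all genes, with DESeq2 1.42.0 as an alternative; the edgeR step was tested on simulated data, where, for macrophages against classical monocytes, 88% of 2-fold rises, 80% of falls to 0.5 times and 26% of 1.5-fold rises were recovered. Treatments were compared as CPM ratios of genes with at least 20 UMIs over both libraries, with exact 95% intervals (scipy 1.17.1), for counting error only; a count of 0 allows up to 3 counts. Named genes are the members, other Schlafen symbols, the 3 called genes of each list with the largest fold change, and the 3 genes most like each member; only those bearing on the members are printed. The members and lists were chosen with earlier results of these data known, and the Leiden resolution of 2 after seeing the clusters. Some genes of the marker and pathway lists are not reported here and were left out of the lists' sums and counts.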

Additional observations from a re-analysis of the deposited data

Results flagged for a closer look

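Slfn1 ratios lay on opposite sides of 1 in different classes for the same pair of treatments, and these differences were not tested, since each treatment has 1 library. With the IL15 superagonist it was 3.92 times the PBS level in CD8 T cells and 0.653 times in macrophages. In fusion against combination it was 1.76 times as high in classical monocytes and 0.481 times in CD8 T cells. The CD8 T value pools cells of which 64.0% in fusion and 13.8% in combination were cycling. Within noncycling cells the ratio was 0.789 and within cycling cells 1.14, and neither was called. With cells thinned to 2000 UMIs the monocyte ratio was 1.39.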

How the results depend on the processing

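Treatments have 1 library each, so animal, handling and treatment cannot be told apart, and the intervals cover counting error only. No paired analysis by replicate number was possible because each treatment has a single library; the library itself was the block between classes. Without that library block, the number of members called was 0 for nonclassical against classical monocytes, 1 for CD8 T against NK, 1 for CD8 T against CD4 T and 0 for cDC1 against cDC2, where DESeq2 also called 0. Genes called over the whole table fell without the block from 4737 to 2897 for macrophages against classical monocytes, from 2720 to 1327 for nonclassical monocytes, from 4356 to 2523 for CD8 T against NK, from 2327 to 1228 for CD8 T against CD4 T, from 983 to 432 for Treg, from 5372 to 3065 for cycling cells and from 796 to 417 for cDC1. DESeq2 called 424 for Treg and 319 for cDC1, stricter gates 1307 for CD8 T against CD4 T and 555 for Treg, and mixed-lineage cells kept gave 565 and leaving out combination 591 for Treg. Leaving out each library in turn gave 2 to 3 members called for nonclassical monocytes, 4 for macrophages, 4 for CD8 T against classical monocytes, 3 for CD8 T against CD4 T, 3 for cycling cells, and 2 for neutrophils, CD8 T against NK, Treg and stem-like cells; cDC1 against cDC2, with 3 libraries, was not run. Uncalled log2 values changed sign for Slfn2 in nonclassical monocytes when single libraries were left out (-0.094 to 0.0049, the latter without fusion) and for Slfn5 in CD8 T against NK without the block (-0.045) and without IL15 superagonist (-0.03) or combination (-0.10), in a range of -0.10 to 0.38. With anti-PD1 as reference, Slfn5 in CD8 T cells of IL15 superagonist was 0.875 and Slfn2 of fusion 0.884. TMM scaling shifted the median gene by over 0.1 (log2) against PBS in CD8 T cells of fusion (0.14) and macrophages of combination (0.12) and fusion (0.15), and moved the share of higher among called genes from 35.3% to 47.8%, 25.5% to 48.3% and 24.1% to 47.7%. The cause of these changes was not tested.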
